A study of Drosophila melanogaster with 53 samples.

Results

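The cytosolic ribosomal protein genes of *Drosophila* were followed in RNA-seq of S2 cells, a line derived from embryos and related to blood cells. Members were the rows of the gene table whose symbol starts with RpS, RpL or RpLP and goes on with a number, which gave 92 of 15598 genes and 190 of 28704 transcripts. By symbol, 37 genes encode proteins of the small 40S subunit, 47 encode proteins of the large 60S subunit, 3 encode the stalk of the large subunit (RpLP0, RpLP1 and RpLP2) and 5 are named after another member with the ending -like. The sets compared were polyadenylated RNA of S2 cells after 1 h with 0.3 µM 20-hydroxyecdysone (20E), for which DMSO was the solvent, and of cells after 1 h with an equal amount of DMSO alone. No double-stranded RNA treatment is listed for these RNA libraries. The labels list 2 libraries per condition, but the authors deposited 1 column of FPKM (fragments per kilobase of transcript, scaled to the total of mapped fragments) per condition, so no SD between libraries can be given. The only error available is the lower and upper confidence bound that the authors give for each FPKM of a gene, at a level that the table does not name.

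A ribosome reads mRNA on its small subunit and joins amino acids on its large subunit, and nearly every protein of each subunit is needed in a single copy. Cells that grow and divide therefore make the mRNAs of these proteins in large and similar amounts. In flies and vertebrates many of these genes start transcription in a stretch of C and T bases in place of the common initiator, and loss of a single gene copy often gives the Minute phenotype of slow growth and thin bristles. 20E is the steroid hormone that times moulting and metamorphosis and acts through the ecdysone receptor. The comparison asked how the levels of this large and abundant group stood 1 h after the hormone was added.

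The cell label was set against defining markers of several cell types. Of 8 names on a plasmatocyte list, 7 were listed and 6 of these had at least 1 FPKM in 20E and in DMSO, with Hml under 1 FPKM. Of 7 germline names, 5 had at least 1 FPKM, with the highest (aub) at 98.2 FPKM in 20E and 101 FPKM in DMSO, while vas and nos were under 1 FPKM. Of the neuron list, elav was at 3.66 FPKM in 20E and 3.63 FPKM in DMSO. Both muscle names and both fat body names were under 1 FPKM in each column. The part of these cell type markers in the results was not tested. Summed FPKM over all genes was 895772 in 20E and 858770 in DMSO.

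The sequence around the start of the transcript is shown first, because a run of C and T bases near the start is what most members shared. For 91 members the transcript with the most FPKM was found in RefSeq (Release 6 assembly, dm6). In each window below, 10 bases before to 20 bases from the start of that transcript, the longest unbroken run of C and T bases is in capitals. The windows are those of the third highest member (RpL35), of members with large differences between 20E and DMSO (RpS21, RpS25 and RpS6), and of RpL18, RpL5 and RpS3 as examples of long runs. RpS25 has a run of 7 bases, and the others have 8 to 24.
RpL35 (chrX:5672724-5672753, plus strand): TTCTTCTTCTTTCCTTTTCTTTTCgccgcg
RpL5 (chr2L:22536631-22536660, minus strand): cgcactaTTTTCCTTCTTTTTgctagcaat
RpL18 (chr3L:7241332-7241361, minus strand): agccacactaTTTTCTTTCTTTTggctttc
RpS3 (chr3R:23358802-23358831, plus strand): ggcacactggCCTCTTTCTTTTCTgcgcac
RpS21 (chr2L:2856101-2856130, plus strand): cagctgtcaTTTCTTTCTCTTTTTCgcctt
RpS25 (chr3R:11216268-11216297, minus strand): tttccgccctccaTCTTTCTgcattgactt
RpS6 (chrX:7901312-7901341, minus strand): cctcctatcggTCTTTTTCaaccctgcgct

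A run of at least 8 C or T bases, on the strand that reads as the RNA, was present in 69 of the 91 windows (75.8%). Over all genes it was present in 634 of 13120 windows (4.83%). The run was counted anywhere in the window and need not cover the start itself. The length of the window and of the run were chosen after these sequences had been seen, so the share is a description. Among genes at 10 FPKM or more in a column the share was 6.08%, and among the 101 other genes at 500 FPKM or more in both columns it was 7.92%. The 70 genes of the mitochondrial ribosome, a separate ribosome with its own proteins, had such a run in 8.57% of windows. The longest run had a median of 11 bases in the members and of 4 bases over all genes, and the longest single run was that of RpL37a, with 25 bases. By subunit, 39 of 47 genes of the 60S subunit, 25 of 37 of the 40S subunit and 3 of 3 of the stalk had a run of at least 8.

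Shorter motifs gave the same picture for the start, while the other motifs differed in direction. CTTTT or CTTTC was sought on the strand that reads as the RNA, between 3 bases before and 8 bases after the start. It was present in 21 of the 91 members (23.1%) and in 2.03% of all genes. TATAAA, the core of the TATA box, was found from 45 to 16 bases before the start in 1 member (1.10%) and in 9.31% of all genes. Among genes at 10 FPKM or more the share with TATAAA was 2.86%. TATCGATA and GGTCACACT were sought from 250 bases before to 50 bases after the start, on either strand. TATCGATA (the DRE element, known as a site of Dref) occurred in 28.6% of members and in 9.40% of all genes. Its share was 17.8% among genes at 10 FPKM or more and 22.9% among the 70 genes of the mitochondrial ribosome. It was 16.8% among the 101 other genes at 500 FPKM or more in both columns. GGTCACACT (Motif 1, known as a site of M1BP) occurred in 9.89% of members, 6.38% of all genes and 12.9% of genes at 10 FPKM or more. These are matches of letters and not measured binding sites.

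Levels were high for most members, with a spread like that of other abundant genes. At least 500 FPKM in both columns was reached by 79 of the 92 genes, with a median of 3794 FPKM in 20E and 3448 FPKM in DMSO. The ratio of the 90th to the 10th percentile among these 79 was 3.78 in 20E and 3.92 in DMSO. The limit of 500 FPKM itself cuts off low values. The 112 other genes that reached it in both columns had ratios of 3.55 in 20E and 3.74 in DMSO. The 72 genes of the mitochondrial ribosome, taken without such a limit, had ratios of 3.34 in 20E and 3.15 in DMSO. Their medians were 64.4 FPKM in 20E and 61.8 FPKM in DMSO. Over all 92 members the ratio was 50.0 in 20E and 51.3 in DMSO, since the other 13 genes lay far below. The highest of these 13 was RpL24-like, at 241 FPKM in 20E and 226 FPKM in DMSO, and 7 of them were under 2 FPKM in both columns.

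**Figure D1:**
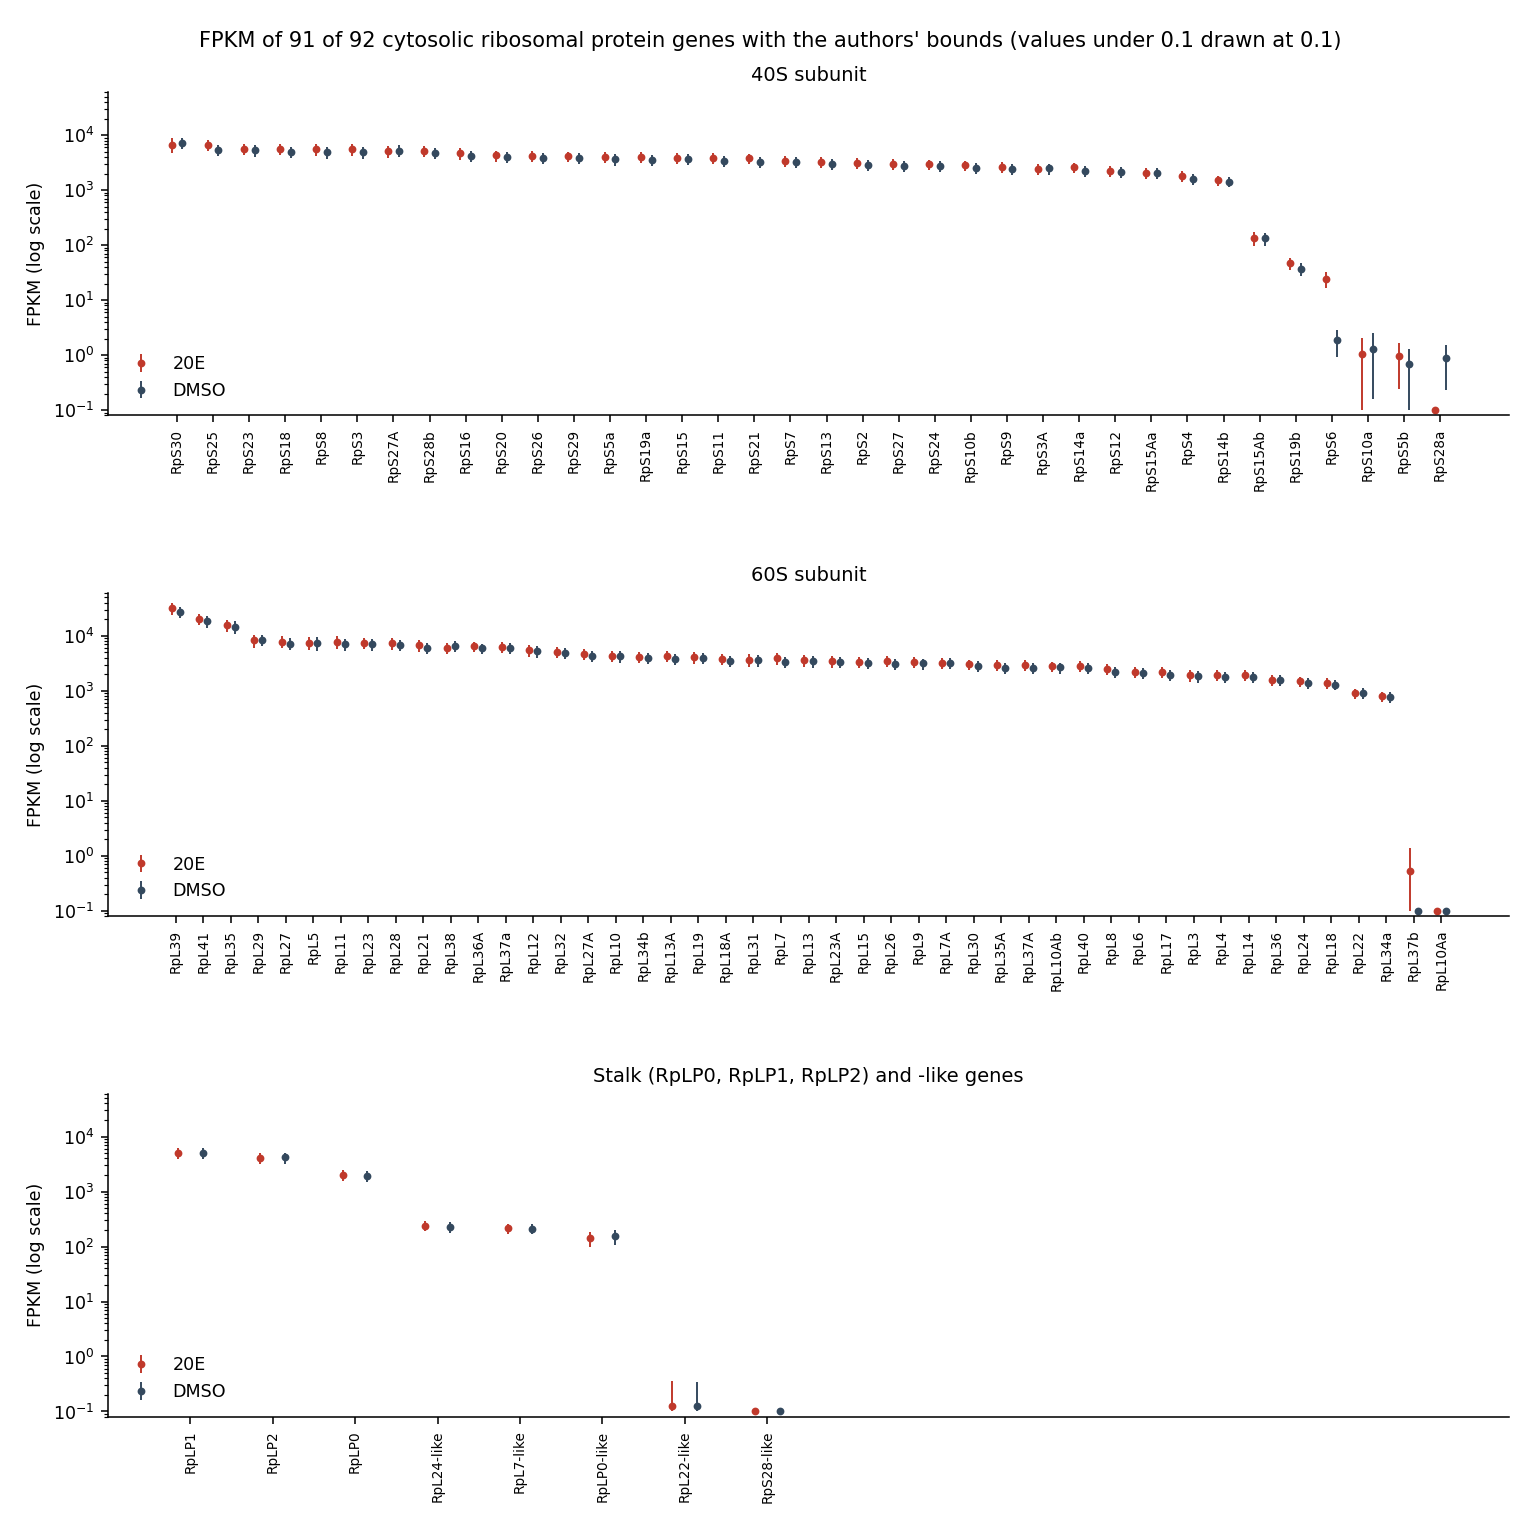
FPKM (log scale) of 91 of the 92 genes in 20E (red) and DMSO (dark blue), ordered by mean level within the 40S subunit, the 60S subunit, and the stalk with the -like genes; bars are the authors' lower and upper bounds, and values under 0.1 FPKM are drawn at 0.1. Most members lie above 1000 FPKM in both columns, and RpL39, RpL41 and RpL35 stand above the rest. RpS6, which reaches 10 FPKM in 20E alone, is the only member at 10 FPKM or more in a column whose bars are apart.

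Together the 92 genes held 41.3% of summed FPKM in 20E and 39.96% in DMSO. The 60S genes made up 26.5% in 20E and 25.7% in DMSO, the 40S genes 13.5% in 20E and 12.9% in DMSO, and the stalk genes 1.25% in 20E and 1.31% in DMSO. Each of the 10 genes with the highest listed FPKM was a member in both columns, and members filled 76 of the top 100 places in 20E and 75 in DMSO. Ef1alpha48D and snoRNA:Me28S-A1322 were listed at 0 in both because their locus held too many fragments to be quantified (status HIDATA), so they are missing from this order and from the sums. FPKM divides by length and these transcripts are short. With each gene weighted by the length of its leading transcript, which approximates the share of sequenced fragments, the share was 19.8% in 20E and 18.9% in DMSO.

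The highest levels were those of 3 genes of the 60S subunit. RpL39, a small basic protein beside the exit tunnel for the new chain, was at 31868 FPKM in 20E (authors' bounds 24225 and 39511) and 27188 FPKM in DMSO (bounds 20866 and 33509). RpL41, one of the smallest proteins known, was at 20464 FPKM in 20E (bounds 15622 and 25306) and 18565 FPKM in DMSO (bounds 14165 and 22966). RpL35 was at 15690 FPKM in 20E (bounds 11548 and 19831) and 14572 FPKM in DMSO (bounds 10718 and 18427). In all 3 genes the bounds of the columns overlapped, and the order was the same in both. RpL29 followed with 8320 FPKM in 20E and 8523 FPKM in DMSO, and RpL27 with 7875 FPKM in 20E and 7252 FPKM in DMSO.

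Below these genes the levels formed an almost continuous series. Of the 78 pairs of neighbours in the order of level among the 79 abundant members, 77 had overlapping bounds in 20E and 77 in DMSO, and the exception in both was RpL35 above RpL29. No order among the other neighbours therefore exceeds the authors' error. The lowest of the 79 were RpL34a, at 793 FPKM in 20E and 775 FPKM in DMSO, and RpL22, at 902 FPKM in 20E and 922 FPKM in DMSO. The level of a member was the same in both columns to within small differences: the Spearman correlation of the 79 levels between 20E and DMSO was 0.99, across genes that share libraries, annotation and length.

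Part of the spread went with transcript length. For the 79 genes, the Spearman correlation of FPKM with the length of the leading transcript in BDGP6 was -0.46 in 20E and -0.44 in DMSO. The 7 genes with a leading transcript under 500 bases had a median of 6439 FPKM in 20E and 6611 FPKM in DMSO. The 7 genes with a leading transcript of 1000 bases or more had a median of 2031 FPKM in 20E and 1936 FPKM in DMSO. RpL5, which binds 5S rRNA together with RpL11, departs from this pattern with a transcript of 1024 bases, 7482 FPKM in 20E and 7385 FPKM in DMSO. The part of the length correction of FPKM in this relation was not tested.

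**Figure D2:**
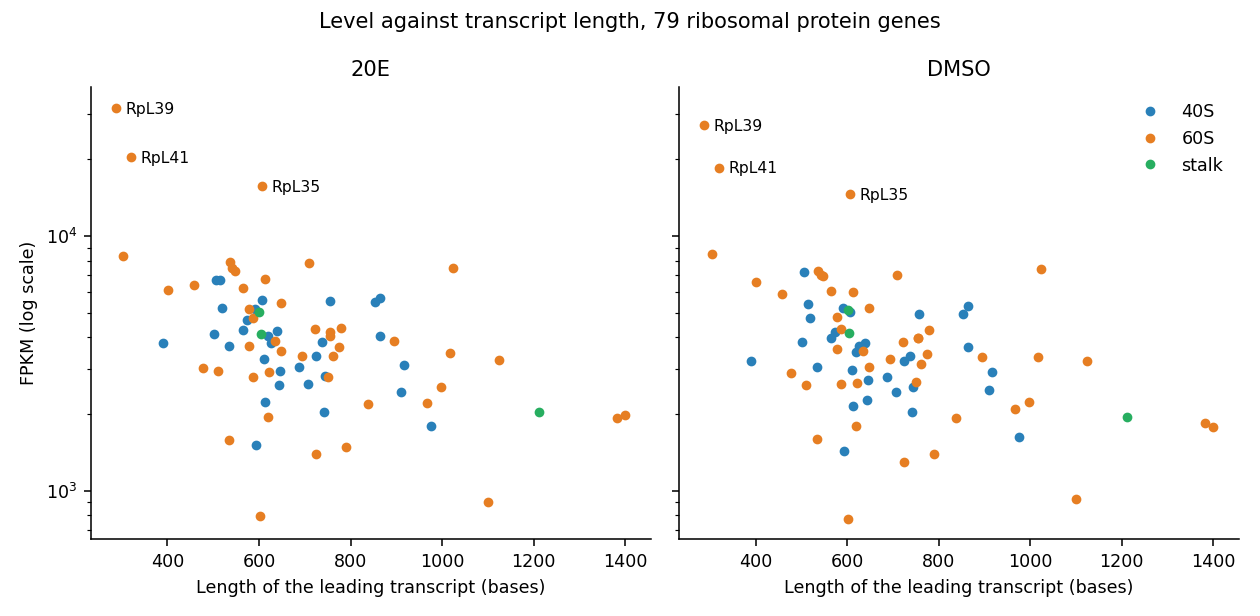
FPKM (log scale) against the length in bases of the leading transcript for the 79 members at 500 FPKM or more in both columns, with 20E on the left and DMSO on the right; each point is 1 gene, coloured by subunit. RpL39 and RpL41 have transcripts of 288 and 320 bases, and members of 1000 bases or more have a median of 2031 FPKM in 20E and 1936 FPKM in DMSO.

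Between the columns most members were slightly higher in 20E. On the scale of log2((20E + 1)/(DMSO + 1)), the median over the 92 genes was 0.10, a ratio of 1.07, against a median of 0 over all genes and of 0.01 over genes at 10 FPKM or more. Of the 85 members at 10 FPKM or more in a column, 74 (87.1%) were higher in 20E and 11 were lower, where 53.8% of all 5971 such genes were higher in 20E. Among the 112 other genes at 500 FPKM or more in both columns, 64.3% were higher and the median was 0.04. With the 20E column scaled to the same total FPKM as DMSO, an alternative chosen after the data were seen, 58 of the 85 members (68.2%) and 32.0% of all such genes were higher in 20E, and the medians were 0.04 and -0.05. On that scale 24 of 31 abundant 40S genes and 30 of 45 abundant 60S genes were higher. For a single gene this size is small beside the authors' bounds. The median distance between a member's FPKM and its upper bound was 23.0% of FPKM in 20E and 22.7% in DMSO. These bounds do not measure the error of a median over the group, which 1 column per condition cannot give.

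By subunit the values were close to each other. The 31 abundant genes of the 40S subunit had a median log2 change of 0.13, with 27 higher in 20E, and the 45 of the 60S subunit had a median of 0.10, with 41 higher. The stalk proteins, which recruit elongation factors to the ribosome, had a median of -0.01. RpLP0, the base of the stalk, was at 2031 FPKM in 20E (bounds 1565 and 2498) and 1936 FPKM in DMSO (bounds 1494 and 2378). RpLP1 was at 5037 FPKM in 20E (bounds 3878 and 6195) and 5120 FPKM in DMSO (bounds 3944 and 6297). RpLP2 was at 4134 FPKM in 20E (bounds 3208 and 5061) and 4171 FPKM in DMSO (bounds 3233 and 5109). The columns overlapped for each of the 3.

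**Figure D3:**
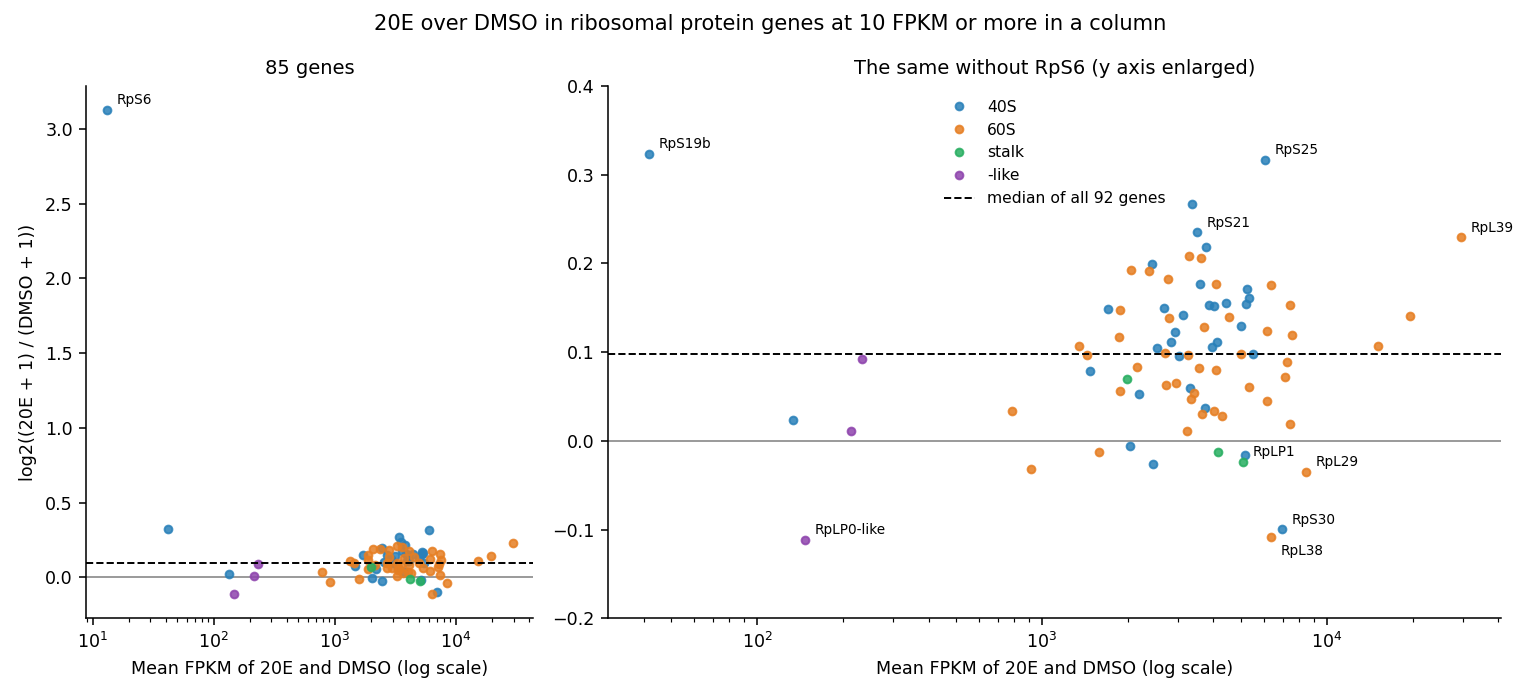
log2((20E + 1)/(DMSO + 1)) against the mean FPKM of both columns (log scale) for the 85 members at 10 FPKM or more in a column, coloured by subunit; the left panel shows all of them and the right panel leaves out RpS6 and enlarges the y axis. The dashed line is the median of the 92 genes, 0.10, and RpS6 stands alone at 3.13.

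Even wide differences among abundant members stayed within the bounds, and the same held for RpS19b, with a log2 change of 0.32, and for RpLP0-like, with -0.11, whose levels are given with the paralogs. RpS25, a 40S protein known in yeast and mammals for initiation at internal entry sites, was at 6704 FPKM in 20E (bounds 5141 and 8266) and 5384 FPKM in DMSO (bounds 4170 and 6597), a log2 change of 0.32. RpS21 was at 3794 FPKM in 20E (bounds 2950 and 4638) and 3224 FPKM in DMSO (bounds 2515 and 3933), a log2 change of 0.23. Both belong to the 40S subunit, and their bounds overlapped between 20E and DMSO.

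In the other direction the values were closer still. RpL38 was at 6132 FPKM in 20E (bounds 4776 and 7489) and 6611 FPKM in DMSO (bounds 5139 and 8083), a log2 change of -0.11. RpS30, which is made as a fusion with a ubiquitin-like protein, was at 6730 FPKM in 20E (bounds 4650 and 8810) and 7212 FPKM in DMSO (bounds 5537 and 8887), a log2 change of -0.10. RpL29 and RpL22 each had a log2 change of -0.03. None of these genes had bounds that were apart.

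A single member passed a 2-fold ratio of FPKM + 1, RpS6, against 0.295% of all genes. No member was under a ratio of 0.5, against 0.0321% of all genes. RpS6, the 40S protein that S6 kinase phosphorylates downstream of TOR, was at 24.3 FPKM in 20E (bounds 16.7 and 31.9) and 1.90 FPKM in DMSO (bounds 0.917 and 2.88), a log2 change of 3.13. It was also the single member whose lower bound in 20E was above its upper bound in DMSO. This criterion was met by 67 of all 15598 genes and by 0.787% of genes at 10 FPKM or more in a column. RpS6 is in the latter set through 20E alone, the column in which it is high.

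The level of RpS6 was itself unlike that of its group. Each of the other 68 members that are neither lettered copies nor -like genes was at 902 FPKM or more in 20E and at 922 FPKM or more in DMSO. RpS6 (FBgn0261592) is listed on chromosome X from 7792468 to 7795362, on a build that the table does not name, in a locus shared with CR33222 and snoRNA:Or-aca2, both listed at 0 in 20E and in DMSO. Of its 2 transcripts, FBtr0071135 (960 bases in BDGP6) carried the whole FPKM in both columns and FBtr0071136 (1195 bases) was listed at 0 in both. Its start window, printed above, holds a run of 8 C or T bases, the shortest that was counted. The median longest run was 11 bases in members at 500 FPKM or more in both columns. The part that the assignment of fragments in this locus has in the low value was not tested.

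In the reverse direction the bounds were apart for RpS28a alone, against 0.151% of genes at 10 FPKM or more and 12 of all 15598 genes. RpS28a was listed at 0 with both bounds at 0 in 20E and at 0.895 FPKM (bounds 0.237 and 1.55) in DMSO. It lies under 10 FPKM in both columns, and a bound of 0 in 20E makes any lower bound above 0 in DMSO pass.

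Flies keep a second copy of several of these genes, named with the letters a and b, and the copies were used very unequally. In 5 of the 9 pairs the higher copy held over 99% of the summed FPKM of the pair in both columns, and the lower copy was under 2 FPKM. The higher copy was a in 5 pairs and b in 4. The share of the higher copy differed between 20E and DMSO by at most 1.96 percentage points.

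RpS14 and RpL34 were the 2 pairs with both copies at 500 FPKM or more. RpS14a was at 2604 FPKM in 20E (bounds 2028 and 3180) and 2267 FPKM in DMSO (bounds 1770 and 2765). RpS14b was at 1511 FPKM in 20E (bounds 1187 and 1835) and 1430 FPKM in DMSO (bounds 1124 and 1737). The share of RpS14a was thus 63.3% in 20E and 61.3% in DMSO, and at the least favourable bounds 52.5% in 20E and 50.5% in DMSO. RpL34b was at 4199 FPKM in 20E and 3973 FPKM in DMSO, and RpL34a at 793 FPKM in 20E and 775 FPKM in DMSO, which gives RpL34b 84.1% in 20E and 83.7% in DMSO.

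The 7 other pairs were led by 1 copy. RpS15Ab held 6.22% of its pair in 20E and 6.10% in DMSO, with 135 FPKM in 20E and 133 FPKM in DMSO. RpS19b, known from the female germline, was at 46.5 FPKM in 20E (bounds 34.9 and 58.1) and 37.0 FPKM in DMSO (bounds 27.5 and 46.4), beside RpS19a at 4064 FPKM in 20E and 3494 FPKM in DMSO. RpS5b, known from the ovary, was at 0.954 FPKM in 20E and 0.690 FPKM in DMSO, beside RpS5a at 4063 FPKM in 20E and 3653 FPKM in DMSO. RpS10a was at 1.05 FPKM in 20E and 1.32 FPKM in DMSO, and its partner RpS10b at 2819 FPKM in 20E and 2540 FPKM in DMSO. RpL37b was at 0.519 FPKM in 20E and listed at 0 in DMSO, and RpL10Aa was listed at 0 in both. Their partners RpL37a and RpL10Ab were abundant, with 6269 and 2786 FPKM in 20E and 6078 and 2668 FPKM in DMSO, as was RpS28b, the partner of RpS28a, with 5205 FPKM in 20E and 4760 FPKM in DMSO.

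**Figure D4:**
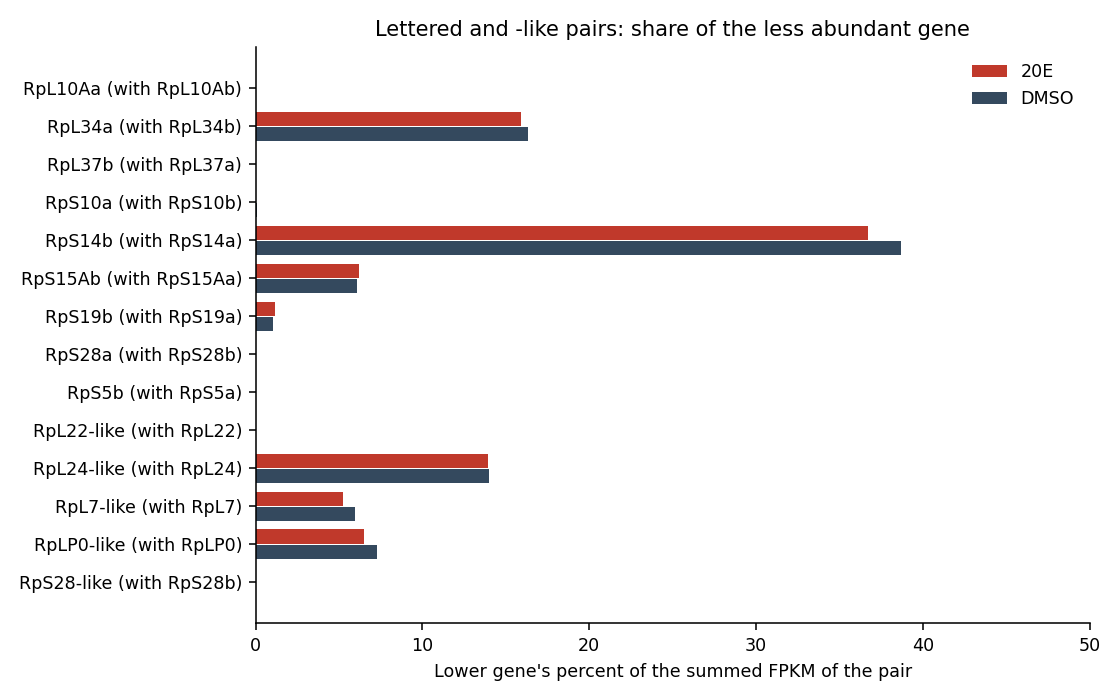
Share of the less abundant gene in the summed FPKM of its pair, in percent, for the 9 lettered pairs and the 5 -like genes, with 20E (red) above DMSO (dark blue) in each pair. RpS14b holds 36.7% in 20E and 38.7% in DMSO, and the lower copy of 5 lettered pairs is too small to be seen.

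How well the copies of a pair can be told apart depends on their sequence. The coding sequences of RpS14a and RpS14b differed at 10 of 456 aligned positions, and 32.3% of the 50-base words of the leading RpS14a transcript also occur in that of RpS14b. RpS15Aa and RpS15Ab shared 25.4% of the words of RpS15Aa. The other 7 lettered pairs shared no word of 50 bases, so their copies can be told apart by reads of that length or more. The division of fragments between RpS14a and RpS14b, and between RpS15Aa and RpS15Ab, is uncertain to this extent. The first 60 coding bases show a nearly identical and a diverged pair, with the differing bases in capitals. The RpS14 copies lie side by side on chromosome X (dm6 coding start 7934034 for RpS14a and 7935203 for RpS14b, plus strand), while the coding sequence starts at 27652836 on 3R for RpS10a and at 19598434 on X for RpS10b, both on the plus strand.
RpS14a: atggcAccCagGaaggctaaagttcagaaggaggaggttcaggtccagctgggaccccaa
RpS14b: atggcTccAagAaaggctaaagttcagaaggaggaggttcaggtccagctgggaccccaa
RpS10a: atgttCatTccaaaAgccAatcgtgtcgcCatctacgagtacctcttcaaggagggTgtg
RpS10b: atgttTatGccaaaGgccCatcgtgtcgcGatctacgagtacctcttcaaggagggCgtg

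The start windows of the copies were compared next. A run of at least 8 C or T bases was present in the window of the higher copy in 9 of 9 lettered pairs. It was present in that of the lower copy in 4 of 9, namely RpL34a, RpL37b, RpS14b and RpS5b. In RpS10b the run lies wholly before the start. RpL37b and RpS5b have runs of 9 and 10 bases and are under 1 FPKM in both columns, so such runs were also present at members near 0. The pairs below contrast a higher and a lower copy, with the longest run of C and T bases in capitals as above.
RpS19a (chrX:16637884-16637913, plus strand): ttcacgcgccttgTTCTTTTTTCCggttga
RpS19b (chr3R:23933511-23933540, minus strand): ccaatcgtccaTTTTgactaaagtcagcaa
RpL10Ab (chr3L:11822841-11822870, plus strand): aaccgattttcaCTTCCTTTCTaaatcgca
RpL10Aa (chr3R:15037356-15037385, plus strand): tacaTTTCaaattttgtgcttgtagaattg
RpS10b (chrX:19598021-19598050, plus strand): TCTTCTTCTTgtcatcccttccgtttccct
RpS10a (chr3R:27652750-27652779, plus strand): TTCggtaaatactaatttaagctggccaca

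By level, 64 of the 79 members at 500 FPKM or more in both columns (81.0%) and 5 of the 12 matched members below (41.7%) had a run of at least 8. Within the abundant members the medians were close. The 64 with a run of at least 8 had a median of 3807 FPKM in 20E and 3413 FPKM in DMSO, and the 15 without had a median of 3681 FPKM in 20E and 3606 FPKM in DMSO. RpL41, the second highest member, is among these 15, with RpS25, RpS30 and RpS4. These classes rest on the leading transcript alone. RpL32, RpS30 and RpS9 are among the 15, but their transcripts that led in 20E have runs of 12, 12 and 17 bases. RpL36 is among the 64, but its transcript that led in 20E has a longest run of 3 bases.

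The -like genes comprised assembly factors at moderate levels and copies near 0 FPKM. RpL24-like, RpL7-like and RpLP0-like are the counterparts of yeast proteins that hold places on the growing ribosome in the nucleolus, and are not parts of the finished ribosome. RpL24-like was at 241 FPKM in 20E (bounds 188 and 294) and 226 FPKM in DMSO (bounds 177 and 276). RpL7-like was at 214 FPKM in 20E and 213 FPKM in DMSO, and RpLP0-like at 141 FPKM in 20E (bounds 99.2 and 183) and 153 FPKM in DMSO (bounds 108 and 197). These levels lie within the range of the 21 measured genes of ribosome biogenesis, 16.2 to 691 FPKM in 20E and 15.6 to 649 FPKM in DMSO. RpL22-like, known from the testis, was at 0.127 FPKM in 20E and 0.123 FPKM in DMSO, and RpS28-like was listed at 0 in both.

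Other lists of the translation machinery were set beside the members. Of 22 names of initiation factors, 21 were measured, with 12 higher and 9 lower in 20E and a median log2 change of 0.02. Of 10 names of elongation and termination factors, 8 were measured, with 6 higher, 2 lower and a median of 0.03. Ef1alpha48D was listed at 0 with the status HIDATA, by which Cuffdiff marks loci with too many fragments to quantify, and was left out. Of the 8 measured factors the most abundant was eIF-5A, at 4904 FPKM in 20E and 5251 FPKM in DMSO. Of 23 names of ribosome biogenesis and RNA polymerase I, 21 were measured, with 13 higher, 8 lower and a median of 0.04. The 72 mitochondrial ribosomal protein genes had 45 higher, 27 lower and a median of 0.05. None of these genes passed a ratio of 2 or 0.5, and none had bounds that were apart. The 40S proteins with names of another form, sta and Rack1, were at 1933 and 1356 FPKM in 20E and at 1776 and 1269 FPKM in DMSO, with log2 changes of 0.12 and 0.10, close to the median of the members.

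Transcripts of the same gene were then compared. Of the 92 members, 37 have 1 listed transcript and 55 have more, up to 8 in RpL15. Of these, 52 had at least 10 FPKM in both columns. In 35 of the 52 (67.3%) the share of every transcript stayed within 5 percentage points between 20E and DMSO. The same held for 53.4% of all genes with more than 1 transcript at this level. It held for 53.3% of the 75 other such genes with a mean of 500 FPKM or more. In 10 of the 52 (19.2%) the transcript that led in DMSO held over 25 points less of the gene's FPKM in 20E. The same was true of 3.8% of all 2919 such genes. In none of the 52 did it hold over 25 points more, which was rare in general, with 11 of the 2919 genes. Among the 75 other genes with a mean of 500 FPKM or more, 9.33% met the same criterion. Taken from the transcript that led in 20E, 8 members held over 25 points less in DMSO, against 2.88% of such genes, and another transcript led in 20E in 9 members (17.3%), against 9.76% of all such genes and 5.33% of the 75. The criterion was chosen after the values had been seen, and the transcript values carry no bounds, so the difference from the other genes has no error.

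The 10 genes were RpL15, RpL17, RpL29, RpL31, RpL32, RpL34a, RpL36, RpS15Aa, RpS30 and RpS9. In RpL17 the transcript FBtr0070983 was at 972 FPKM in 20E and 1849 FPKM in DMSO, and FBtr0070980 at 1159 FPKM in 20E and 53.8 FPKM in DMSO. In RpS9 the transcript FBtr0076425 was at 1195 FPKM in 20E and 2301 FPKM in DMSO, and FBtr0076423 at 1396 FPKM in 20E and 107 FPKM in DMSO. In RpS30 the transcript FBtr0083970 was at 3346 FPKM in 20E and 6714 FPKM in DMSO, and FBtr0083969 at 3383 FPKM in 20E and 498 FPKM in DMSO. The summed FPKM of the 10 genes differed far less between the columns than these transcripts did. It differed most in RpL17, at 2195 FPKM in 20E and 1921 FPKM in DMSO. Over the 10 genes the second transcript held 40.9% to 56.7% in 20E and 2.80% to 17.6% in DMSO. In RpL32, often used as a reference gene in flies, the leading DMSO transcript FBtr0085594 held 43.0% in 20E and 90.9% in DMSO.

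**Figure D5:**
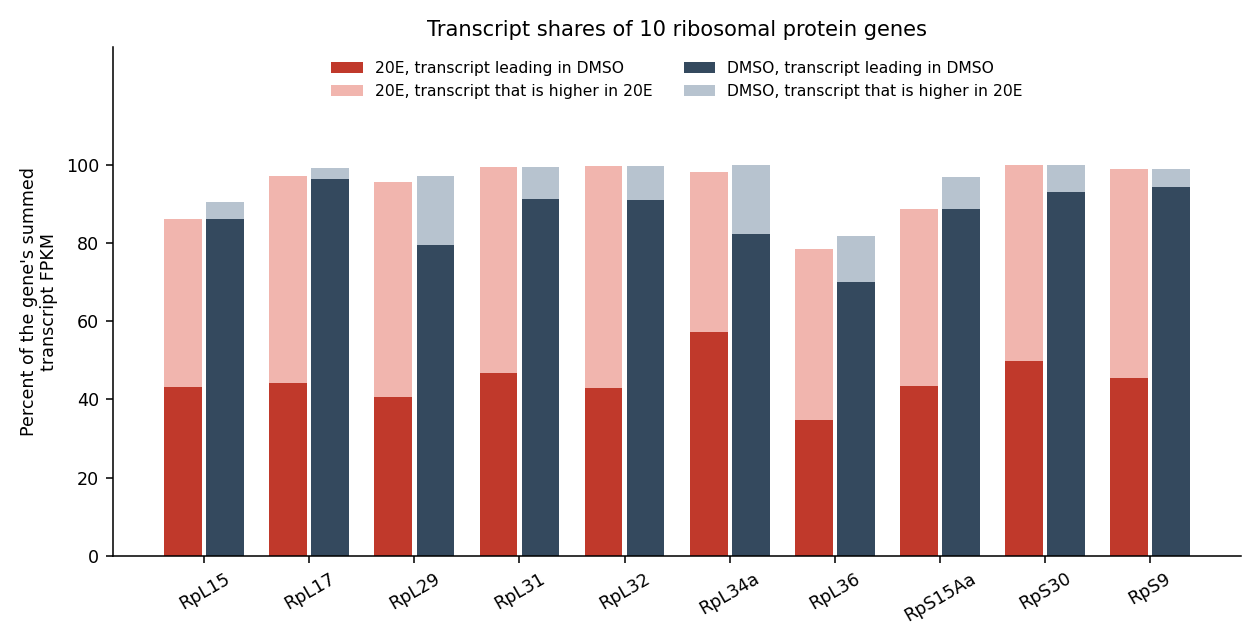
Share of the gene's summed transcript FPKM, in percent, held by the transcript that leads in DMSO (dark) and by the transcript that is higher in 20E (light) for 10 members, with 20E (red) left of DMSO (blue). The leading DMSO transcript holds 69.9% to 96.3% in DMSO and 34.7% to 57.2% in 20E.

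In all 10 genes the 2 transcripts have the same coding exons and the same 3′ end in RefSeq and differ in introns outside the coding sequence, in most genes together with their start. The transcript with the larger share in 20E was the longer one in 7 genes and the shorter one in 3. They are hard to tell apart, since from 70.9% (RpL36) to 94.8% (RpS9) of the 50-base words of the 2 transcripts are common to both. The part of this overlap in the differences was not tested. In 3 of the genes the start lies upstream by over 90 bases in the transcript with the larger share in 20E, by 93 bases in RpL32, 237 in RpS30 and 226 in RpS9. The windows of these starts are shown with the longest C and T run in capitals, the transcript with more FPKM in 20E before the one that leads in DMSO.
RpL32 FBtr0085592 (chr3R:30046142-30046171, minus strand): ccaccagCTTTTTCTTTTCgcttctggttt
RpL32 FBtr0085594 (chr3R:30046049-30046078, minus strand): tcgTTTTTggcggtttcgagttgaactgcg
RpS30 FBtr0083969 (chr3R:20850587-20850616, plus strand): cgccaTCTTTCTTTTTCgggatccgcacac
RpS30 FBtr0083970 (chr3R:20850824-20850853, plus strand): aataaatgcatgcggcatggttaCTTTgca
RpS9 FBtr0076423 (chr3L:9511512-9511541, minus strand): ctaccttcaCCCCTCTTTCTTTTTCTaaac
RpS9 FBtr0076425 (chr3L:9511286-9511315, minus strand): CTTTTgccttgcagtgctcggttgaattgt

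In these 3 genes the upstream start carries a run of 12, 12 and 17 C or T bases, and the downstream start runs of 5, 4 and 5. The reverse is seen in RpL36, where the transcript with more FPKM in 20E has a longest run of 3 bases and the one that leads in DMSO a run of 13. In RpL17 the start lies 67 bases upstream in the transcript with more FPKM in 20E, and both starts have a longest run of 6 bases. In RpL15 the starts are 1 base apart, with runs of 12 bases in both. In RpL34a and RpS15Aa both transcripts begin at the same base, so there the start does not separate them.

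Many members share a locus with genes of small nucleolar RNAs (snoRNAs), which guide the modification of rRNA and are cut from introns. By their deposited positions, 29 of the 92 members (31.5%) shared a locus with a snoRNA gene, against 93 of 5886 other genes at 10 FPKM or more (1.58%). In 20 of the 29 the locus held no other kind of gene. Whether the snoRNAs lie in introns of the member was not checked. RpS5a had the most, 14, followed by RpS7 with 7. All 73 snoRNA genes in these loci were listed at 0 in 20E and in DMSO, in libraries of polyadenylated RNA, so their level was not measured here. Counting genes of any kind, 46 members shared a locus. The 46 members whose locus neither held nor overlapped another listed gene had a median log2 change of 0.10, close to that of all members.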

How the data were processed

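The authors deposited FPKM per gene, with lower and upper bounds, and FPKM per transcript, in 1 column per condition. How 2 libraries entered a column is not stated, and depth is not given. The submitters' processing notes list bcl2fastq 2.17.1.14, Bowtie2 2.3.4.2, TopHat2, deepTools 3.0.2, dm6 and dm3, without saying which served the RNA-seq. The layout is that of Cuffdiff. The transcript table also holds the authors' fold changes, test statistics, p-values, q-values and calls, which were not used. No column of per-sample values was left unused.

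With 1 column per condition no test was run. Differences are log2((20E + 1)/(DMSO + 1)), with a pseudocount of 1 FPKM, and are lower than the true change for low genes. Columns were called apart where the bounds did not overlap. The leading transcript is that with the largest FPKM summed over both columns. Lengths came from BDGP6 by transcript identifier. Starts and coding sequences came from the RefSeq annotation and genome of the Release 6 assembly, in place of the planned RefSeq promoter and protein tables. Coordinates were never mixed between builds.

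Members and lists were chosen with earlier results of these data known. Named were the 5 highest and 5 lowest members, the 5 largest differences in each direction at 10 FPKM or more, all paralogs, the stalk, RpS6, members listed at 0 and members past a limit. Of these, 1 member is not reported here. Others named for their sequence or transcripts were chosen after their values were seen. Python 3.11.15, pandas 2.3.3, NumPy 2.4.6, SciPy 1.17.1, Biopython 1.88 and Matplotlib 3.10.9 were used, and the rules were tested on simulated data. Alternatives covered the pseudocount, filters, scaling, the transcript table and the members included.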

Additional observations from a re-analysis of the deposited data

How the results depend on the processing

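No paired analysis was possible because the tables hold 1 column per condition, and leaving out a library was not possible for the same reason. A level or share counted as moved when it changed by more than the median distance of the authors' upper bound, 22.7%, a log2 change when it shifted by more than the same ratio (0.30 on the log2 scale), and a count when it changed over 1.5 times. By these rules 95 of 113 alternative values stayed and 18 moved. The limits are wide, and many of these values are shares of paralog pairs near 100%, which could hardly move. The share of RpS14a in DMSO, 61.3%, counted as unmoved at 50.5% with the least favourable bounds. The median log2 change of members, 0.10 as deposited, is smaller than the log2 limit of 0.30. It ranged from 0.04 (both columns at equal total FPKM, chosen after seeing the data) to 0.11 (without paralogs and -like genes). With a pseudocount of 0.1 or with ratio limits of 1.5 and its reciprocal, 2 members were higher (RpS6 and RpL37b) and 1 lower (RpS28a). With a mean of at least 100 FPKM, or without members that share a locus, 0 were higher. Without paralogs and -like genes, 0 members had bounds apart and lower in 20E. The share of summed FPKM weighted by length was 19.8% in 20E and 18.9% in DMSO. The ratio of the 90th to the 10th percentile, 50.0 in 20E and 51.3 in DMSO over all members, was 3.86 in 20E and 3.95 in DMSO without paralogs and -like genes, 4.94 in 20E and 5.23 in DMSO without members under 10 FPKM in both columns, 30.7 in 20E and 27.7 in DMSO without leading transcripts under 500 bases, and 3.78 in 20E and 3.92 in DMSO among members at 500 FPKM or more. The alternative on transcripts under 500 bases leaves out 7 members at 500 FPKM or more and 3 low ones. At a limit of 50 points, 1 of 52 members (1.92%) had its leading DMSO transcript lower in 20E, where 0.308% of all genes did. At 10 points there were 13 of 52 members (25.0%), where 13.8% of all genes met the limit. The limits of 10 and 50 points and the group at 500 FPKM or more were also chosen after seeing the data.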
